A study of Homo sapiens with 4 samples.

Results

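The Notch genes examined here were 10 symbols, comprising 3 receptors (NOTCH1, NOTCH2 and NOTCH3), 3 ligands (JAG1, JAG2 and DLL1) and 4 nuclear targets (HES1, HEY1, HEY2 and HEYL). They were taken by official symbol from the mRNA values of hFOB 1.19 cells, where they make up 10 of 19610 symbols and 22 of 79798 listed transcripts. FPKM, the number of sequenced fragments scaled to transcript length and library size, was summed over the transcripts of each symbol. Of the 10 genes, 7 reached 1 FPKM or more in some library, as did 12859 of all symbols, and DLL1, HEY1 and HEY2 did not. The hFOB 1.19 line is a clonal line of human fetal osteoblasts that carries a temperature-sensitive SV40 large T antigen, so that it proliferates at a permissive culture temperature and differentiates once the temperature is raised. The study profiled RNA of this line before induction (day 0, the control, at the permissive temperature) and on days 3, 6 and 9 of mineralization at the raised temperature, to follow gene expression through matrix mineralization. Each day has 1 library, so no comparison between days has a replicate check, no test was made and no error can be given. All 4 libraries carry the T antigen, and time in culture and the shift in temperature cannot be told apart in any comparison with day 0.

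Notch receptors are single-pass membrane proteins that are activated by a ligand on the surface of a neighbouring cell. Ligand binding allows an ADAM protease and then gamma-secretase to cut the receptor, and the freed intracellular domain enters the nucleus, where it joins the DNA-binding protein RBPJ and a Mastermind coactivator. Its classical targets are the HES and HEY genes, which encode basic helix-loop-helix repressors. In the osteoblast lineage Notch signalling is known for maintaining mesenchymal progenitors and for restraining terminal differentiation, in part through HES and HEY proteins that act on RUNX2.

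The upstream sequences of 4 of the genes are printed because they set targets that carry the RBPJ core sequence beside a receptor and a ligand that do not. Each is the stretch of 250 bases before the start site of the gene in RefSeq (build GRCh38.p14), written 5′ to 3′ on the strand of the gene, with the RBPJ core TGGGAA, or TTCCCA for the opposite strand, in capitals. The stretches lie at chr3:194135898-194136147 on the plus strand for HES1, chr1:39639644-39639893 on the minus strand for HEYL, chr19:15200996-15201245 on the minus strand for NOTCH3 and chr20:10674000-10674249 on the minus strand for JAG1. Whether these start sites are used in hFOB 1.19 cells was not tested.
HES1: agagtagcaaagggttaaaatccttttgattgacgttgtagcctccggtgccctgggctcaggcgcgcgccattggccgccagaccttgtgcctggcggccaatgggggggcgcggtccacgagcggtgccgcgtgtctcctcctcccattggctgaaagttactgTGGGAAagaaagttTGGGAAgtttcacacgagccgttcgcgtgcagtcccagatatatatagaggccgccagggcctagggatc
HEYL: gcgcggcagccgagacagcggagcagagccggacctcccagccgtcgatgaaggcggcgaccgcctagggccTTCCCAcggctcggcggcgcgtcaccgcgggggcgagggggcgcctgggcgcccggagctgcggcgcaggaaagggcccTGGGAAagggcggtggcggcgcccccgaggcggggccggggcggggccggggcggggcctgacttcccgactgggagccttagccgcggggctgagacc
NOTCH3: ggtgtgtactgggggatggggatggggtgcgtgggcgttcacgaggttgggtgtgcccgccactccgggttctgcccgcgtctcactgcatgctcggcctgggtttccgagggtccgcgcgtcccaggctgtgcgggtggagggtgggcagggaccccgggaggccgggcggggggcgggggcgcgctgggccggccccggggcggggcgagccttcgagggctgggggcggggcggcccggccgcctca
JAG1: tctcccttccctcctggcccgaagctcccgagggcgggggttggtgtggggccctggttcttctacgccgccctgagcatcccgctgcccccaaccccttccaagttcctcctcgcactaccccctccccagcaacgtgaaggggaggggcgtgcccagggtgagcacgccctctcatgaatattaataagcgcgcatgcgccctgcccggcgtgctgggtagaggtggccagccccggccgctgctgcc

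In windows of 300 bases, from 250 before to 50 after the start site, 8 of the 10 genes had an entry, all but DLL1 and HEY1. The RBPJ core was present on either strand in 3 of these 8, namely HES1, HEYL and HEY2, and in 24.0% of 35116 RefSeq promoter windows of the same length. HES1, a repressor that is a direct Notch target in many tissues, held 2 matches on its own strand that began 84 and 70 bases before the start. HEYL held a match on the opposite strand that began 178 bases before the start and a match on its own strand at 99 bases. In HEY2 the matches lay 213 bases before the start on the opposite strand and 3 bases before it on the gene's own strand. No match was found in the windows of NOTCH1, NOTCH2, NOTCH3, JAG1 or JAG2. The longer form GTGGGAA, which contains the core, was found in the same 3 of 8 windows, against 6.25% of all windows. HES and HEY proteins bind E-boxes and N-boxes. The E-box CACGTG, which reads alike on both strands, occurred in 0 of 8 windows and in 7.26% of all. The N-box CACNAG, in which N is any base, occurred in 4 of 8 (HES1, NOTCH1, NOTCH2 and NOTCH3) and in 38.0% of all. These windows are rich in G and C, from 59% in HES1 to 79.7% in JAG2, and a match to these letters is a description of the sequence and not evidence of binding.

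**Figure D1:**
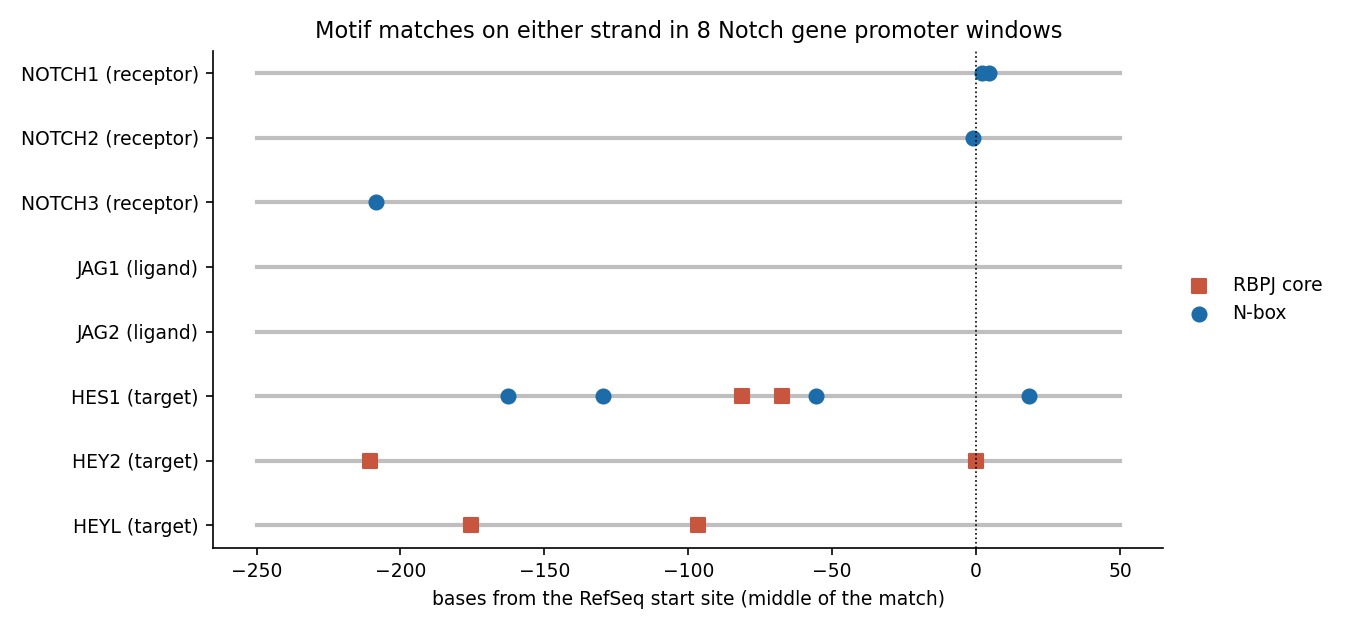
Each grey line is the promoter window of 1 gene, from 250 bases before to 50 after the RefSeq start site at 0 (horizontal axis, bases), squares mark the RBPJ core and circles the N-box on either strand, placed at the middle of the match. Squares appear on the lines of HES1, HEY2 and HEYL, with 2 on each, and on none of the receptor or ligand lines.

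The labelled cell type and the libraries were examined first. FPKM of all mRNA symbols summed to between 538072 and 617857 per library, and 11956 to 12421 symbols reached 1 FPKM. Raw counts were not used, and the number of reads behind each gene is unknown. Among genes with a single transcript and an FPKM under 0.3, the most common ratio of days 3, 6 and 9 to day 0 was shared, within 0.01 on the log2 scale, by 97 of 528, 75 of 552 and 53 of 545 genes, and no depth was taken from so small a part of them. Of 9 osteoblast markers, 6 passed the minimum of 1 FPKM, among them RUNX2, the lineage transcription factor, with 7.37 FPKM on day 0 and 26.2, 19.3 and 18.2 on days 3, 6 and 9. ALPL, which encodes the tissue-nonspecific alkaline phosphatase, went from 0.294 FPKM on day 0 to between 4.18 and 4.35, whereas the markers SP7, BGLAP and IBSP stayed under 1 FPKM in every library.

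On each later day the receptors NOTCH1 and NOTCH3 and the ligands JAG1 and JAG2 were at least 2-fold higher than on day 0, whereas the receptor NOTCH2 and the target HES1 lay within 2-fold of day 0. HEYL was the only member whose ratio came close to the limit in the other direction. The change was measured as the log2 ratio of FPKM + 1, a scale that understates the change of genes with low values, and a gene was called higher or lower at a log2 ratio of at least 1 or at most -1. By this rule, 4 of the 10 members, or of the 7 that passed the minimum, were higher and 0 were lower on day 3, where 8.13% of all 12859 genes were higher and 5.30% were lower. On day 6, 4 were higher and 0 lower, beside 9.01% and 6.42% of all genes. On day 9, 4 were again higher and 0 lower, beside 9.60% and 6.52%. NOTCH1, NOTCH3, JAG1 and JAG2 were the 4 in each comparison, and all 3 comparisons share the day 0 library. JAG2 passed the minimum only through the later days, so it could be called in the higher direction alone. With a minimum of 5 FPKM, 3 of 5 members were higher on each day, beside 8.03%, 8.87% and 9.2% of all genes. That minimum left out JAG2 and also HEYL, which had at most 3.80 FPKM. The median log2 ratio of all genes was -0.08, -0.08 and -0.09 on days 3, 6 and 9.

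**Figure D2:**
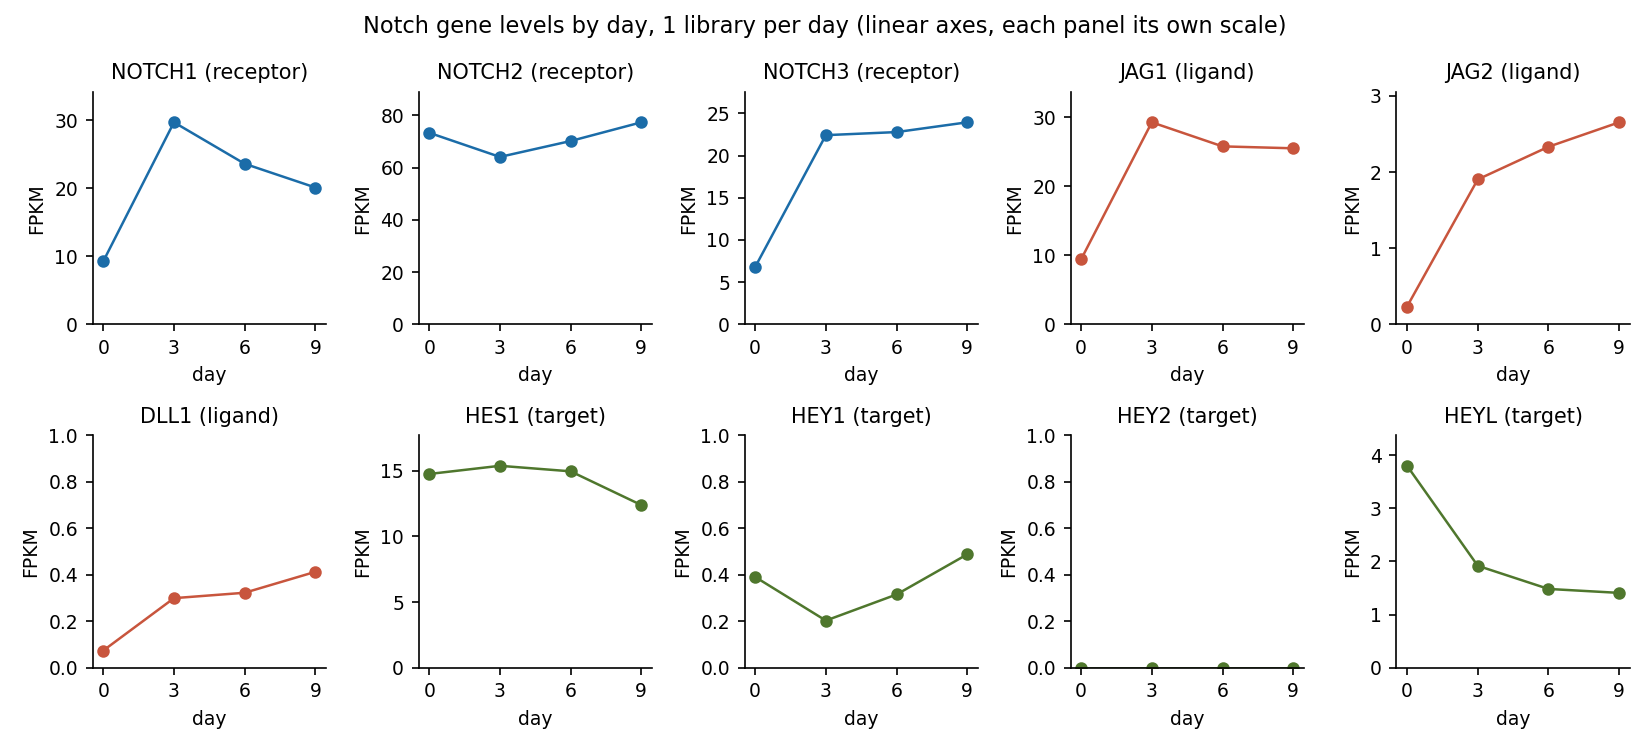
Each panel plots the FPKM of 1 gene (vertical axis, linear, each panel with its own scale) against the day of differentiation (horizontal axis), with 1 point for each library. NOTCH1, NOTCH3, JAG1 and JAG2 sit above day 0 in every later library, HES1 stays between 12.4 and 15.4, HEYL goes from 3.80 to 1.41, and HEY2 lies at 0 throughout.

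Among the receptors, NOTCH1 (ENSG00000148400), which has 1 listed transcript, had 9.26 FPKM before induction and 29.7, 23.6 and 20.1 at the later times. It was highest on day 3 and lowest on day 0, with the levels of days 6 and 9 between. The log2 ratios to day 0 were 1.58, 1.26 and 1.04, the last just past the limit. The plain ratio of FPKM was 3.21, 2.55 and 2.17. Among all genes, 3.16% had a larger log2 ratio than NOTCH1 on day 3 and 8.91% on day 9. Its place in the ranking of genes by FPKM moved from above 38.3% of them on day 0 to above 74.6% on day 3.

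NOTCH3 (ENSG00000074181), a receptor best known from vascular smooth muscle and pericytes, had 6.80 FPKM on day 0 and 22.4, 22.8 and 23.9 on days 3, 6 and 9. Unlike NOTCH1, its 3 later levels lay close together. The log2 ratio to day 0 was 1.59, 1.61 and 1.68, or 3.30, 3.35 and 3.52 as a plain ratio, and 3.60% of all genes had a larger one on day 9. Of its 3 transcripts, ENST00000263388 had 5.66, 16.2, 16.2 and 17.8 FPKM from day 0 to day 9, and ENST00000601011 had 1.14, 5.61, 6.62 and 6.13. ENST00000601011 therefore held 16.7% of NOTCH3 on day 0 and between 25.02% and 29.1% afterwards. ENST00000597756 was listed above 0 on day 3 alone, at 0.626 FPKM.

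NOTCH2 (ENSG00000134250), mutated in Hajdu-Cheney syndrome, a disorder with marked bone loss, was the most abundant member in every library, with 73.3, 64.1, 70.2 and 77.3 FPKM from day 0 to day 9. Its log2 ratios to day 0 were -0.19, -0.06 and 0.08, and their sign turned on days 3 and 6 under other scalings (0.01 and 0.11 with every library set to the same total, 0.03 on day 6 with the same median). Transcript ENST00000256646 held between 82.3% and 86.1% of it, and ENST00000612822 between 9.77% and 12.7%. NOTCH2NL, a near-identical partial copy of the gene, was listed at 54.4, 55.1, 64.5 and 59.4 FPKM, so the division of reads between NOTCH2 and its copy is uncertain.

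FPKM is scaled by transcript length, so levels of different genes are set side by side here, although the RNase R step described for these libraries could affect genes unequally. The 3 receptors summed to 89.4 FPKM on day 0 and to 116, 117 and 121 on days 3, 6 and 9. NOTCH2 made up 82.0% of that sum on day 0 and 55.1%, 60.2% and 63.7% afterwards. The share of NOTCH1 was 10.4% before induction, then 25.6%, 20.2% and 16.6%, and NOTCH3 held 7.60% on day 0 and between 19.3% and 19.7% later. NOTCH1 was the more abundant of these last receptors up to day 6 and NOTCH3 on day 9, a difference for which no replicate spread exists.

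Among the ligands, JAG1 (ENSG00000101384), the Jagged ligand mutated in Alagille syndrome, had 9.41 FPKM on day 0 and 29.2, 25.8 and 25.5 on days 3, 6 and 9. The day 0 library was the low one, and the later libraries were close to each other. The log2 ratios were 1.54, 1.36 and 1.35, and the plain ratios 3.11, 2.74 and 2.71. ENST00000254958 held between 94.9% and 99.4% of JAG1 in each library.

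JAG2 (ENSG00000184916), the second Jagged ligand, was listed at 0.234 FPKM before induction and at 1.90, 2.33 and 2.65 FPKM afterwards. It was low in every library, and it is a member that passed the minimum only through the later days. The log2 ratios of FPKM + 1 were 1.23, 1.43 and 1.57, while plain ratios, 8.13, 9.96 and 11.3, rest on a day 0 value whose read number is unknown. ENST00000331782 had 0.234, 1.44, 1.78 and 2.45 FPKM. When this transcript was taken alone, the log2 ratio on day 3 was 0.98, inside the limit. ENST00000347004 was listed at 0.000119 FPKM on day 0 and at 0.461, 0.553 and 0.199 afterwards.

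DLL1 (ENSG00000198719), a Delta-type ligand, did not reach the minimum, with 0.0744, 0.2999, 0.323 and 0.413 FPKM from day 0 to day 9. ENST00000366756 accounted for all of it up to day 6, and ENST00000630500 appeared on day 9 alone, at 0.302 FPKM or 73.1% of the gene. No change is called from values this low. The 3 ligands summed to 9.72 FPKM on day 0 and to 31.4, 28.4 and 28.5 later, of which JAG1 made up 96.8%, 93.0%, 90.7% and 89.3%.

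**Figure D3:**
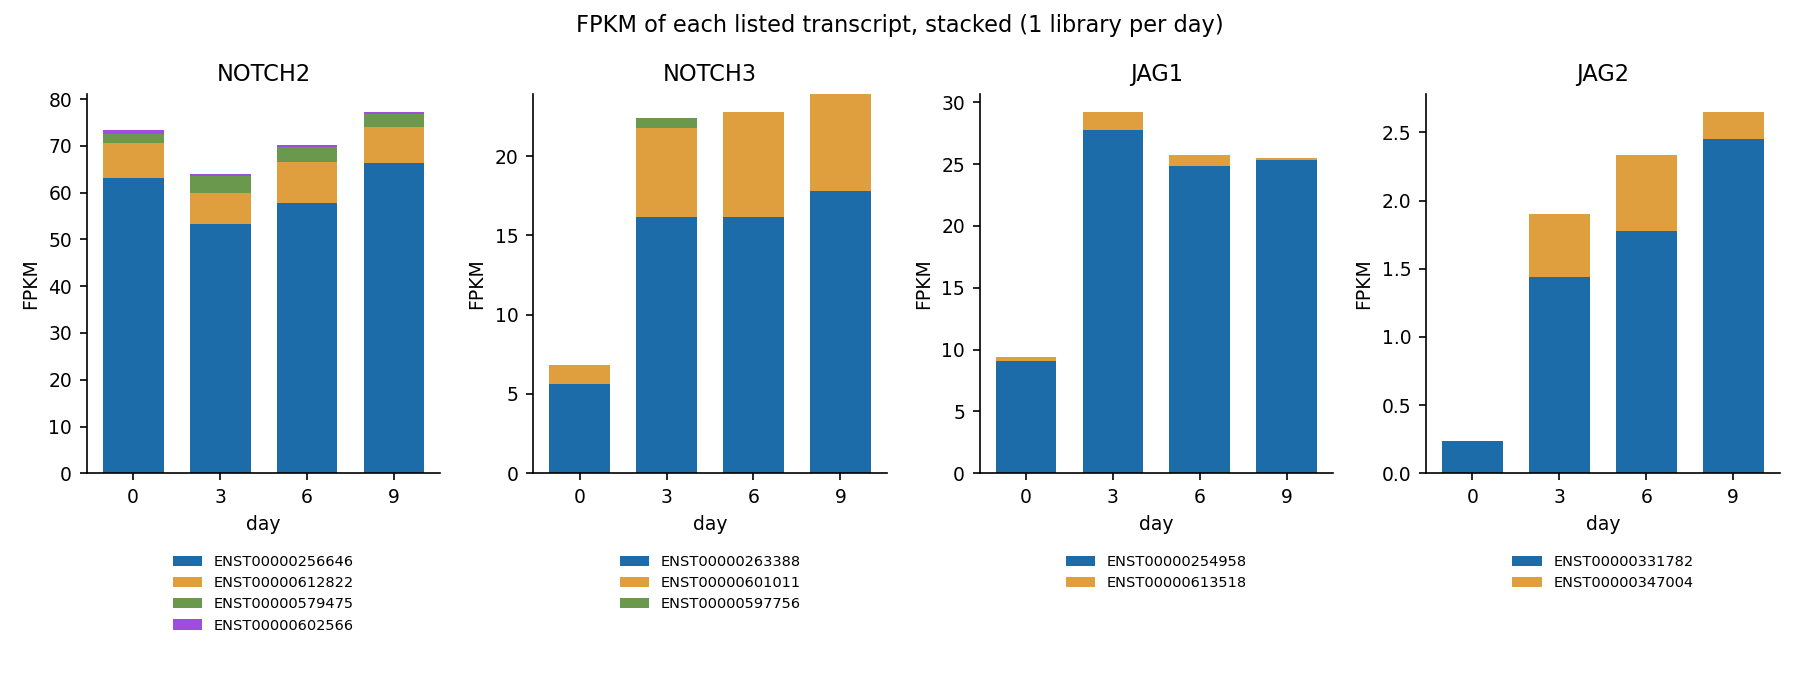
Stacked bars give the FPKM of each listed transcript (vertical axis, linear from 0) of NOTCH2, NOTCH3, JAG1 and JAG2 in the library of each day (horizontal axis). In each gene 1 transcript holds most of every bar, from 70.9% for NOTCH3 on day 6 to 99.9% for JAG2 on day 0.

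Among the targets, HES1 (ENSG00000114315) had 14.7, 15.4, 14.9 and 12.4 FPKM from day 0 to day 9. The level of day 9 was the lowest and that of day 3 the highest, within a narrow range. Its log2 ratios to day 0 were 0.06, 0.02 and -0.23, and it stood above between 47.5% and 54.3% of genes by FPKM in all 4 libraries. On day 0 NOTCH2 alone among the members exceeded HES1, and on days 3, 6 and 9 NOTCH1, NOTCH3 and JAG1 did so as well.

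HEYL (ENSG00000163909), a HEY family repressor with 1 listed transcript, had 3.80 FPKM before induction, then 1.92, 1.48 and 1.41. Day 0 was the high library here, the reverse of the receptors and ligands that were past the limit. The log2 ratios of FPKM + 1 were -0.72, -0.95 and -0.99, all inside the limit, and 12.9%, 7.34% and 6.59% of genes had a smaller ratio. Day 0 exceeded the later days by plain ratios of 1.98, 2.56 and 2.70. With 0.1 in place of 1 added before the logarithm the ratios were -0.95, -1.30 and -1.37, so that HEYL was then past the limit on days 6 and 9.

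HEY1 (ENSG00000164683) was listed at 0.391, 0.203, 0.316 and 0.488 FPKM and did not reach the minimum. Of its transcripts, ENST00000354724 was present throughout (0.293, 0.203, 0.316 and 0.196 FPKM), ENST00000337919 on days 0 and 9 (0.0983 and 0.132) and ENST00000518733 on day 9 alone (0.161). HEY2 (ENSG00000135547) was listed at 0 in every library, for both of its transcripts. Of the 4 targets, then, HES1 and HEYL were measured above the minimum, and neither was past the limit on any later day. The direction of HEY1 from day 0 to days 6 and 9 turned when its main transcript was taken alone (0.03 and -0.11), and no direction is given for it.

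Between later days, at 1 temperature and without the day 0 library, no member was past the limit. Of the 7 members, 0 were higher and 0 lower on day 6 against day 3, where 0.607% of genes were higher and 0.443% lower. The count was also 0 in both directions on day 9 against day 6, beside 0.381% and 0.163% of genes. NOTCH1 had the lowest ratio of the members in the first of these comparisons, -0.32, and -0.22 in the second. For NOTCH3 the ratios were 0.02 and 0.07. The 25th and 75th percentiles of all genes were -0.15 and 0.14 between days 3 and 6, and -0.12 and 0.13 between days 6 and 9.

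**Figure D4:**
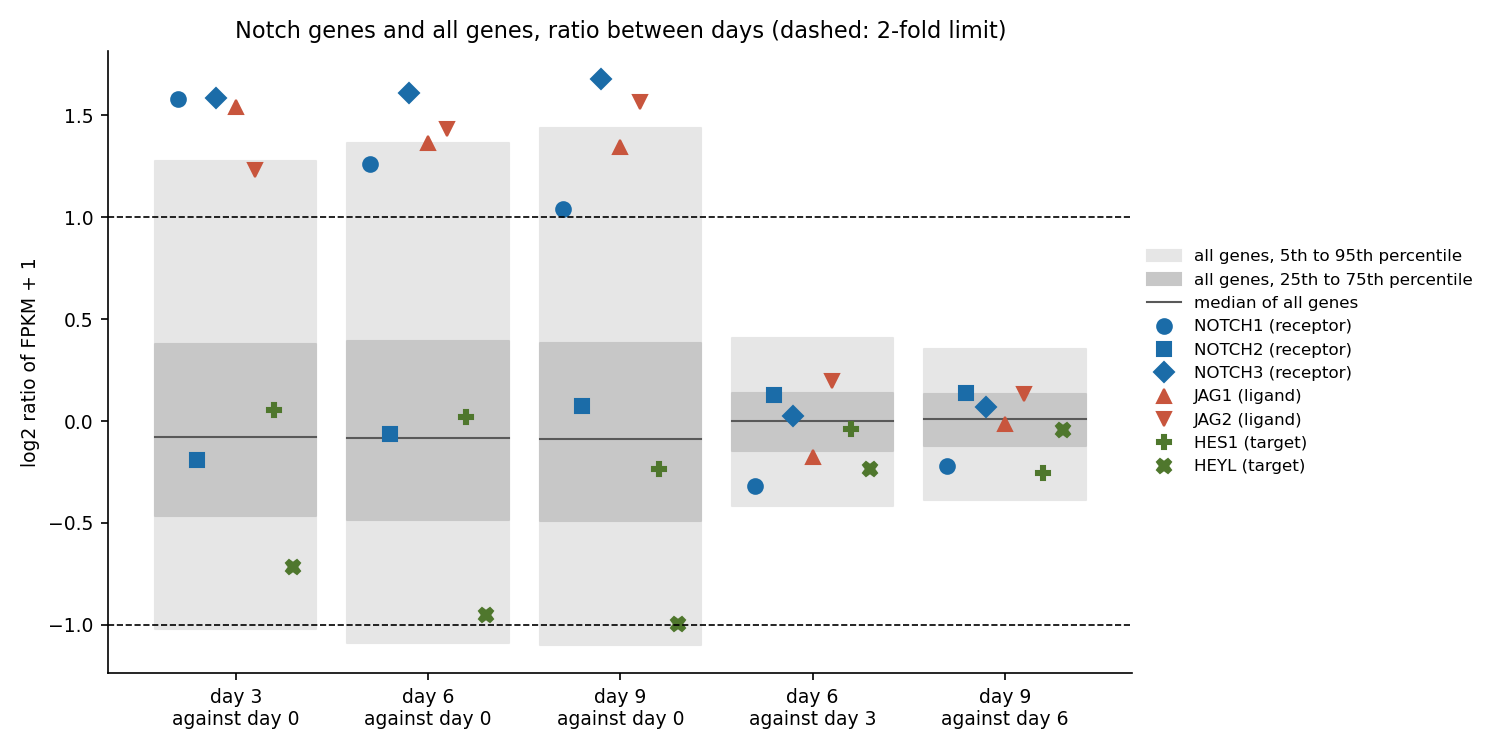
Points give the log2 ratio of FPKM + 1 (vertical axis) of the 7 members above the minimum in 5 comparisons between days (horizontal axis), over grey boxes for the 5th to 95th and 25th to 75th percentiles of all 12859 genes, with dashed lines at the 2-fold limit. NOTCH1, NOTCH3, JAG1 and JAG2 lie above the upper dashed line in the 3 comparisons with day 0, and every point lies between the lines in the other 2.

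The wider pathway was read from 54 further genes, of which 45 passed the minimum. On day 3, 4 of the 45 were higher and 3 lower than on day 0, beside the 8.13% and 5.30% of all genes. The numbers were 4 and 2 for day 6 (9.01% and 6.42% of all genes), and 3 and 2 for day 9 (9.60% and 6.52%). These numbers are close to the shares of all genes and single out nothing about the pathway. They also moved with the scale: on day 9, 5 were higher with 0.1 added or with every library at the same total, and 1 was lower with the same median or the same total. Of all genes, 12.8% were higher on day 9 with 0.1 added and 10.8% at the same total. With the same median 5.25% of all genes were lower, and with the same total 4.88%. The median log2 ratios of the 45 genes, 0.05, 0.06 and -0.09, lay near those of all genes given above. None of 5 glycosyltransferases that modify the receptors and none of 9 genes of receptor turnover was past the limit as FPKM was deposited. Under other settings RFNG passed it on day 3 (same median and same total), FBXW7 on days 6 and 9 (same total) and DTX4 on day 3 (0.1 added).

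Among these 45 genes the HES family members HES2 and HES6 had the largest ratios on each later day. HES2 had 0.479 FPKM on day 0 and 7.45, 5.04 and 6.53 on days 3, 6 and 9, with log2 ratios of 2.51, 2.03 and 2.35. HES6, which is known to antagonise HES1, had 2.24, 13.4, 11.2 and 11.6 FPKM and ratios of 2.15, 1.91 and 1.96. For both genes day 0 was the low library, and HES2 passed the minimum only through the later days. They were 2 of 3 measured genes in a list of 7, beside 8.13%, 9.01% and 9.60% of all genes higher on days 3, 6 and 9. The other measured gene, HES4, had 26.9, 32.7, 35.6 and 37.4 FPKM from day 0 to day 9. Its log2 ratios, 0.28, 0.39 and 0.46, were inside the limit. HES3, HES5, HES7 and NRARP, a feedback inhibitor of the Notch complex, stayed under the minimum.

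Of 9 genes for cleavage of the receptor, 3, 2 and 2 were lower on days 3, 6 and 9, where 5.30%, 6.42% and 6.52% of all genes were lower. Their median log2 ratios were -0.59, -0.69 and -0.61, beside -0.08, -0.08 and -0.09 for all genes. PSEN2, a catalytic subunit of gamma-secretase, had 9.75, 3.83, 3.62 and 3.84 FPKM, with ratios of -1.16, -1.22 and -1.15. FURIN, which cleaves the receptor during its maturation, had 35.2, 17.4, 16.1 and 16.8 FPKM and was past the limit on days 6 and 9 (-1.08 and -1.03). The gamma-secretase subunits APH1B and PSENEN were past it on day 3 alone, at -1.09 and -1.04. APH1B had 8.69, 3.56, 4.32 and 4.27 FPKM, and PSENEN had 69.0, 33.0, 35.3 and 40.2. These falls depended on scale: with all libraries set to the same total, 0 of the 9 were lower on day 3 and PSEN2 alone was lower on days 6 and 9. The proteases ADAM10 and ADAM17 were within the limit, with ratios from 0.09 to 0.24.

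In the nuclear complex, 0 of 12 genes were past the limit on day 3 and 1 on each of days 6 and 9, the corepressor TLE1, with 8.50, 12.9, 19.6 and 20.3 FPKM. Among all genes, 8.13%, 9.01% and 9.60% were higher on days 3, 6 and 9, and 5.30%, 6.42% and 6.52% were lower. Beside these shares, counts of 0 or 1 in short lists single out nothing. RBPJ, the DNA-binding partner of the receptors, had 51.7, 68.6, 82.5 and 91.1 FPKM and log2 ratios of 0.40, 0.66 and 0.81, inside the limit. Its level was the lowest on day 0 and the highest on day 9. RBPJ does not stand for its list. Of the 12 genes, 6 had ratios above 0 and 6 below on days 3 and 6, and 3 above and 9 below on day 9. The list medians were 0.02, 0.04 and -0.14. Among those that ran the other way were CREBBP (-0.68, -0.76 and -0.83) and EP300 (-0.31, -0.64 and -0.71). Of 5 measured genes of ligand endocytosis, 1 was higher on days 3 and 6 and 0 on day 9. This was the ubiquitin ligase MIB2, with 5.79, 15.2, 16.2 and 12.2 FPKM. Its log2 ratio on day 9 was 0.96, and it was past the limit there under each of the alternatives run for it (0.1 added, same median and same total). DLK2, a Delta-like protein at 0.615, 2.30, 1.60 and 2.11 FPKM, was past the limit on day 3 (1.03), and with 0.1 added on days 6 and 9 as well. DLK2 too passed the minimum only through the later days. NOTCH4, DLL4 and DLK1 were under the minimum.

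**Figure D5:**
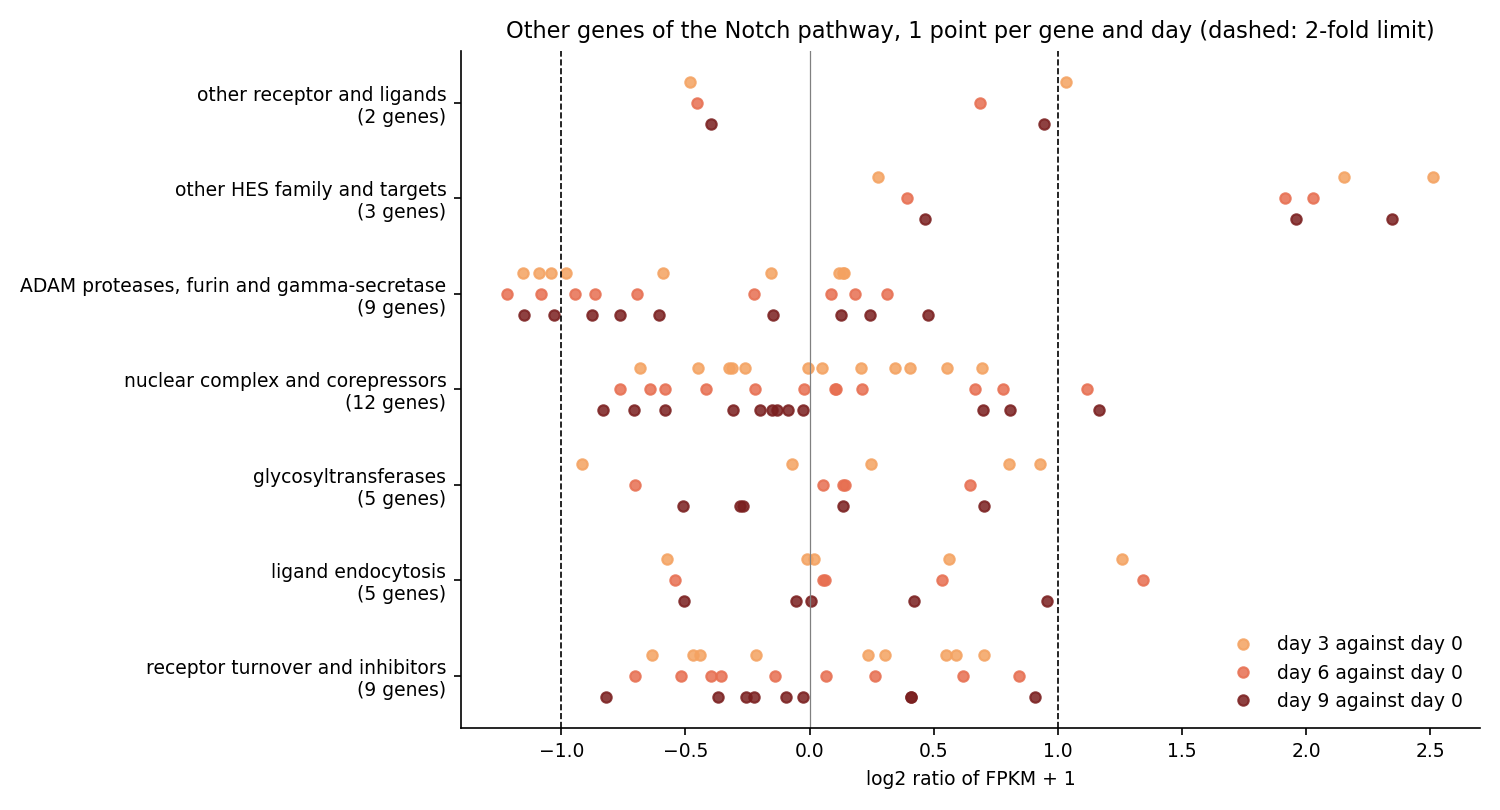
Each point is the log2 ratio of FPKM + 1 to day 0 (horizontal axis) of 1 further pathway gene on day 3, 6 or 9 (colours), grouped by role with the number of genes that passed the minimum, and dashed lines mark the 2-fold limit. HES2 and HES6 stand to the right of the other points at 1.91 to 2.51, and the cleavage genes hold the points left of the lower line.

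Some markers of other cell types and of proliferation were also past the limit against day 0. Others lay within the limit or under the minimum, and the part of these markers in the result was not tested. Their counts stand beside 8.13%, 9.01% and 9.60% of all genes called higher and 5.30%, 6.42% and 6.52% called lower on days 3, 6 and 9. Bulk RNA cannot tell apart a change in the share of a kind of cell and a change of RNA in each cell. Of 7 proliferation markers, 3, 3 and 4 were lower on days 3, 6 and 9. The summed level of the list went from 951 FPKM on day 0 to between 612 and 660. PCNA, also on this list, ran the other way, at 159 FPKM on day 0 and 313, 285 and 296 later. Its log2 ratios, 0.98, 0.84 and 0.90, were inside the limit, and CDK1 and MCM2 were within it on each day. Of 9 osteoblast markers, 4, 5 and 4 were higher, with sums of 2024 FPKM on day 0 and 4332, 3721 and 3013 on days 3, 6 and 9. COL1A1, COL1A2 and SPARC made up most of each of these sums. SPARC, at 1113 FPKM on day 0 and 1469, 1351 and 1275 later, was inside the limit each day. COL1A1 was inside it on day 9, at 0.56. For 7 smooth muscle and pericyte markers, a group of cells known to express NOTCH3, 3, 2 and 3 were higher and TAGLN was lower each day, and the sum went from 970 to between 478 and 532 FPKM. TAGLN alone made up 839 FPKM of that sum on day 0 and 126, 153 and 195 FPKM later, so the lower sum is the change of this gene and runs against the markers that were higher. ACTA2, at 20.4 FPKM on day 0 and 163 to 168 later, and RGS5 were among those, and MYH11, the defining contractile myosin, stayed under 0.3 FPKM. Of 7 endothelial markers, 0, 1 and 1 were higher, with sums from 11.4 FPKM on day 0 to 20.6 on day 9, most of it TEK. PECAM1, VWF, CDH5 and ESAM did not exceed 0.262 FPKM in any library. Of 6 haematopoietic markers, 1 was higher on each day, CD68, a lysosomal protein found in many cells, and the sums ran from 17.5 to 91.6 FPKM, while CD3E was listed at 0 and PTPRC did not exceed 0.441 FPKM.

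The genes whose 4 values were most like those of NOTCH3 and HEYL, the members with the highest and the lowest ratio on day 9, were found by Euclidean distance between log2(FPKM + 1) values centred on their mean, over 4 libraries and 12807 genes outside the pathway lists. Nearest to NOTCH3 were PRSS12 (distance 0.05), MR1 (0.06) and PTPRN (0.07), and 55 genes lay within 0.2. PRSS12, a secreted serine protease, had 9.44, 29.2, 30.3 and 30.9 FPKM from day 0 to day 9. Nearest to HEYL were ING3, KCTD3 and SUMO3 (0.02, 0.02 and 0.03), with 425 genes within 0.2. ING3, a subunit of a histone acetyltransferase complex, had 10.9, 6.40, 5.23 and 5.06 FPKM. With 4 points per gene, of which day 0 stands apart, many genes share such a profile.

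Among 4583 lncRNA rows, 0 carried a symbol made of a member's name and a hyphen, the usual form for antisense and divergent transcripts.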

How the data were processed

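Total RNA of hFOB 1.19 cells was depleted of ribosomal RNA and made into directional libraries, 1 for each of days 0, 3, 6 and 9. RNase R, which digests linear RNA, is described for the mRNA libraries, whereas circular RNA libraries are said to lack this step. If that holds, FPKM reflects what survived digestion, which can differ between genes, and whether the description is exchanged between the kinds of library could not be settled. The authors deposited FPKM per transcript. The methods name Bowtie and TopHat, and the submitters' processing notes give Bowtie 0.12.2 and the mouse build mm8, which does not match human cells. The program behind the FPKM and the human build are not given in the sources used here.

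FPKM was summed per official symbol, 1 was added, and log2 ratios were taken between days, with a minimum of 1 FPKM in any library and a limit of 2-fold. With 1 library per day, no test was made. The rule was tested on simulated data that held no 2-fold changes, so this did not check it near the limit. All 10 gene IDs matched a table of gene names. Promoter windows came from RefSeq. The 9 tables of the authors' own comparisons (log2 fold changes, p-values and q-values) and 26 columns of values per sample were not used. Circular RNAs pair with no gene name and were not analysed here.

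The members and lists were chosen with earlier results of these data known. Named were all members, their transcripts with at least 10% of the gene's FPKM, the other pathway genes past the limit on any later day, and the 3 profiles nearest to the members with the highest and lowest ratio on day 9. RBPJ, pathway genes inside the limit, ENST00000597756 and single markers were named after their values were seen. The value added, the minimum, the limit, the scaling and the use of the main transcript were varied, and for the other pathway genes these settings were chosen after seeing the data. Computations ran in Python 3.11.15 (pandas 2.3.3, numpy 2.4.6) and plots in matplotlib 3.10.9.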

Additional observations from a re-analysis of the deposited data

How the results depend on the processing

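No paired analysis was possible because every day is represented by a single library, and for the same reason no library could be left out. With a limit of 4-fold, 0 of 7 members were higher on days 3, 6 and 9, against 4 at 2-fold. At 4-fold, 1.66%, 2.01% and 2.34% of all genes were higher. With a limit of 1.5-fold, 1 of 7 members, HEYL, was lower on each of the 3 days, against 0. At 1.5-fold, 18.5%, 20.1% and 20.4% of all genes were lower, so this count singles out nothing. HEYL was also lower on days 6 and 9 with 0.1 or 0.5 added in place of 1. With 0.1 added, 8.73% and 9.49% of all genes were lower on these days, and with 0.5 added 7.52% and 7.92%. These differences from the counts above follow from the limit and the scale. In the comparisons with day 0, no minimum, a minimum of 5 FPKM, the main transcript alone, and rescaling to the same median or the same total left each count of members within 1.5 times its value above. Between later days, the counts stayed at 0 with 0.1 added, no minimum, a limit of 1.5-fold, the same median and the main transcript alone, and other settings were not run. Of 120 log2 ratios of single members under alternatives, 114 stayed on their side of the limit and 6 crossed it. Of the ratios past the limit, 0 changed sign. The 6 were JAG2 on day 3 with its main transcript, HEYL on days 6 and 9 with 0.1 added, and DLL1 with 0.1 added (1.198, 1.28 and 1.56), which lies under the minimum. Some of the 120 could not move, since HEY2 is at 0 throughout and NOTCH1, HES1 and HEYL have a single listed transcript. Rescaling to the same total moved the median of all genes on day 3 from -0.08 to 0.10. The day 3 falls of PSEN2, APH1B and PSENEN did not pass the limit on that scale. Neither did those of FURIN on days 6 and 9, where PSEN2 stayed past it. Without read counts, values under 1 FPKM such as those of DLL1 and HEY1 carry no known precision.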
